A study of Homo sapiens with 6 samples.

Results

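The unfolded protein response and the secretory machinery are represented here by 44 genes. The list was drawn up with earlier results of these data known, and its genes were looked up by symbol in the probe annotation of a custom array. Of these, 43 were found among the 17411 genes that have an annotated probe, and 42 were among the 12697 genes that passed the filter on dim probes (above the array median on at least 3 arrays). KDELR2 was not found by its symbol, and ERO1LB stayed below the array median on all 6 arrays, with log2 values of 6.57 to 6.75, and was not tested. Each gene was read from its brightest probe.

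INA6 is a human multiple myeloma line, a single line of malignant plasma cells whose growth and survival need interleukin 6 (IL-6). All cells were first deprived of IL-6 for 13 h. In the restimulated group, 3 samples then received IL-6 for 1 h, and in the withdrawn group, the other 3 samples did not. Total RNA of each sample was labelled with Cy3 and hybridised to 1 array, and the labels name the 3 samples of a group as biological replicates. They do not mention separate cultures, so the spread that the p-values rest on may be technical and is that of these 6 samples alone.

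The endoplasmic reticulum folds the proteins that a cell secretes, and plasma cells, which secrete antibody, carry a heavy load of it. Unfolded protein in its lumen is sensed by ERN1 (IRE1), EIF2AK3 (PERK) and ATF6. ERN1 splices the mRNA of the transcription factor XBP1, EIF2AK3 favours translation of the transcription factor ATF4, and ATF6 is cut to release a transcription factor. Their targets include chaperones, the machinery that degrades misfolded proteins, the channel through which new chains enter the lumen and the coats of the vesicles that carry cargo to the Golgi. IL-6 itself signals mainly through the transcription factor STAT3.

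Facts of the whole array set were few. All 6 arrays had nearly the same distribution, with medians between 6.84 and 6.85 on the log2 scale, and 0.719% to 0.900% of spots per array sat at the ceiling of 16. None of the 69 probes of the listed genes was at the ceiling on any array. SOCS3, the feedback inhibitor that STAT3 induces, read 11.54, 11.46 and 11.79 after restimulation and 7.73, 7.54 and 7.91 after withdrawal (log2 difference 3.87 ± 0.13 SE, limma adjusted p = 0.000634), in the direction that the group labels give. All 11 plasma cell markers were above the array median on all 6 arrays, SDC1, TNFRSF17, IRF4, PRDM1 and JCHAIN among them. Of the markers of other cells, 4 of 8 for T and NK cells, 3 of 7 myeloid, 2 of 5 epithelial, 1 of 6 fibroblast and 4 of 5 erythroid genes were above it on all arrays, and CD3D, LYZ, EPCAM and COL1A2 were above it on none. Some of these markers were well above it, with restimulated and withdrawn means of 14.56 and 14.72 for KRT8, 9.33 and 9.88 for CD14, 9.22 and 9.40 for CD3E and 8.72 and 7.53 for PDGFRA, and their part in the results was not tested. The median is a low bar here, because 216288 of the 243504 spots have no gene symbol.

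The promoters show which of these genes carry the letters of an unfolded protein response element. RefSeq promoter windows (GRCh38.p14, from 250 bases before to 50 bases after the start) were found for 41 of the 44 genes. The endoplasmic reticulum stress element (ERSE, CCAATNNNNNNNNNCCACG, searched on both strands) was in the windows of 6 of 41 members, or 14.6%, against 0.081% of all 27305 windows. The matches are shown because all 6 genes encode chaperones, foldases or their partners. Each is written 5′ to 3′ on the strand of the match, with the fixed letters in capitals and the 9-base spacer in lower case. HSP90B1 has a pair of matches.
HSPA5: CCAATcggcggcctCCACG
HSP90B1: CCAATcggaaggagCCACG
HSP90B1: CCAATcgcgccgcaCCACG
CALR: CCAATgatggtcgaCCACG
PDIA6: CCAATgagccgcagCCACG
CRELD2: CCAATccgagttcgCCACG
ERO1LB: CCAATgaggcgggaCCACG

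The shorter ERSE-II (ATTGGNCCACG) was in 3 windows, or 7.32% of members against 0.062% of all windows. They belong to SDF2L1 and HYOU1, both partners of the chaperone HSPA5 in folding, and to HERPUD1, which acts in degradation. HYOU1 has a pair of matches of the same letters.
SDF2L1: ATTGGtCCACG
HYOU1: ATTGGaCCACG
HYOU1: ATTGGaCCACG
HERPUD1: ATTGGgCCACG

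In total 9 members had an ERSE or ERSE-II, and XBP1 had neither. The start site of the XBP1 window lies 492 bases inside the outer end of the gene. That of CREB3L2 lies 69098 bases inside and that of PDIA6 24927 bases inside, so these windows belong to inner start sites. In 30 of 41 members the start site lies at most 3 bases inside that end, and in 11 it lies further inside. The XBP1 and ATF6 element (UPRE, TGACGTGG) was in 3 windows, of HYOU1, SSR3 and KDELR3 (7.32% against 0.762%). In HYOU1 it overlaps an ERSE-II. The SSR3 window too belongs to an inner start site, 992 bases inside the outer end of the gene. The amino acid response element that ATF4 binds (TGATGNAA) was in the windows of CREB3L2, CHAC1 and HERPUD1 (7.32% against 3.75%), and the STAT3 element (TTCCNGGAA) in those of EDEM2 and SEC61G (4.88% against 1.24%). A match describes the letters of the window and is not a binding site. The members were listed as genes of the unfolded protein response and secretory machinery. Their higher shares of its elements are therefore a description and not a test.

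As the member with the best known element, HSPA5 (chr9:125241294-125241593, minus strand, GRCh38.p14) is printed whole, with its exact ERSE match in capitals. Inexact copies were not searched for.
HSPA5: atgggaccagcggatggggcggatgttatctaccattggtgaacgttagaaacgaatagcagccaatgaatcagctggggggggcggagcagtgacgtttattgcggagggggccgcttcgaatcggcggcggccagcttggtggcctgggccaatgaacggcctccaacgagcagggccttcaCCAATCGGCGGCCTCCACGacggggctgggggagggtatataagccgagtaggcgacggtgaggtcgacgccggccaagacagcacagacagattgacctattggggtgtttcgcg
HERPUD1 (chr16:56931892-56932191, plus strand) is shown because its window holds both an amino acid response element and an ERSE-II, in capitals, the first of them on the opposite strand.
HERPUD1: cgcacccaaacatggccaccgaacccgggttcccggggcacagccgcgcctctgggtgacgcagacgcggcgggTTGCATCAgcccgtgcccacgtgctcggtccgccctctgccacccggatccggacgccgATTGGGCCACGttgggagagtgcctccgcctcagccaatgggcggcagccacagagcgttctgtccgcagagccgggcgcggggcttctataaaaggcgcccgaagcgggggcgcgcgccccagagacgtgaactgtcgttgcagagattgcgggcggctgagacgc

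In the comparison of restimulated with withdrawn cells, none of the 42 tested members passed the test (limma, Benjamini-Hochberg over 12697 genes, threshold 0.05), against 0.236% of all tested genes called higher and 0.00788% called lower. At an unadjusted p under 0.05, 2 members were higher (XBP1 and SSR1) and 1 was lower (CREB3L2), where 3.6% of all tested genes were higher and 4.39% lower. All 3 restimulated arrays lay above all 3 withdrawn arrays for XBP1, DNAJB9 and SSR1, and below them for CREB3L2 and HERPUD1. Such separation was found in 5.8% of all tested genes upwards and in 6.36% downwards, so 3 and 2 of 42 are near the background. A log2 difference of at least 0.5 was reached upwards by 1 member, XBP1, and downwards by 0, against 0.819% and 1.0% of all tested genes.

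The differences of the members were centred near those of all tested genes. Their median log2 difference was 0.02, against 0.01 over all tested genes, with 23 positive and 19 negative differences between -0.37 and 0.71. Without XBP1 and CREB3L2 the range was -0.29 to 0.33. The 95% interval of a member had a median width of 0.30 to each side, and for 31 of 42 members the whole interval was inside ±0.5 on the log2 scale (1.41-fold), for 40 inside ±1. The smallest difference among the genes called on these arrays was 0.72 in size, just above that of XBP1. With 1 array left out, fewer arrays have to separate, and the shares rose over all tested genes as well. Upwards, 5 members (11.9%, against 11.8% of all tested genes) separated without restimulated replicate 1, 7 (16.7% against 8.42%) without withdrawn replicate 1, 6 (14.3% against 14.5%) without withdrawn replicate 2 and 5 (11.9% against 11.3%) without withdrawn replicate 3. Without restimulated replicate 2 or 3, 4 members separated upwards (9.52% against 8.15% and 11.7%). Downwards, 4 members (9.52% against 8.92%) separated without restimulated replicate 1 and 6 (14.3% against 14.5%) without withdrawn replicate 3. Without restimulated replicate 2, 2 members did (4.76% against 9.73%). Without restimulated replicate 3, withdrawn replicate 1 or withdrawn replicate 2, 3 members did (7.14% against 13.2%, 10.5% and 9.12%).

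**Figure D1:**
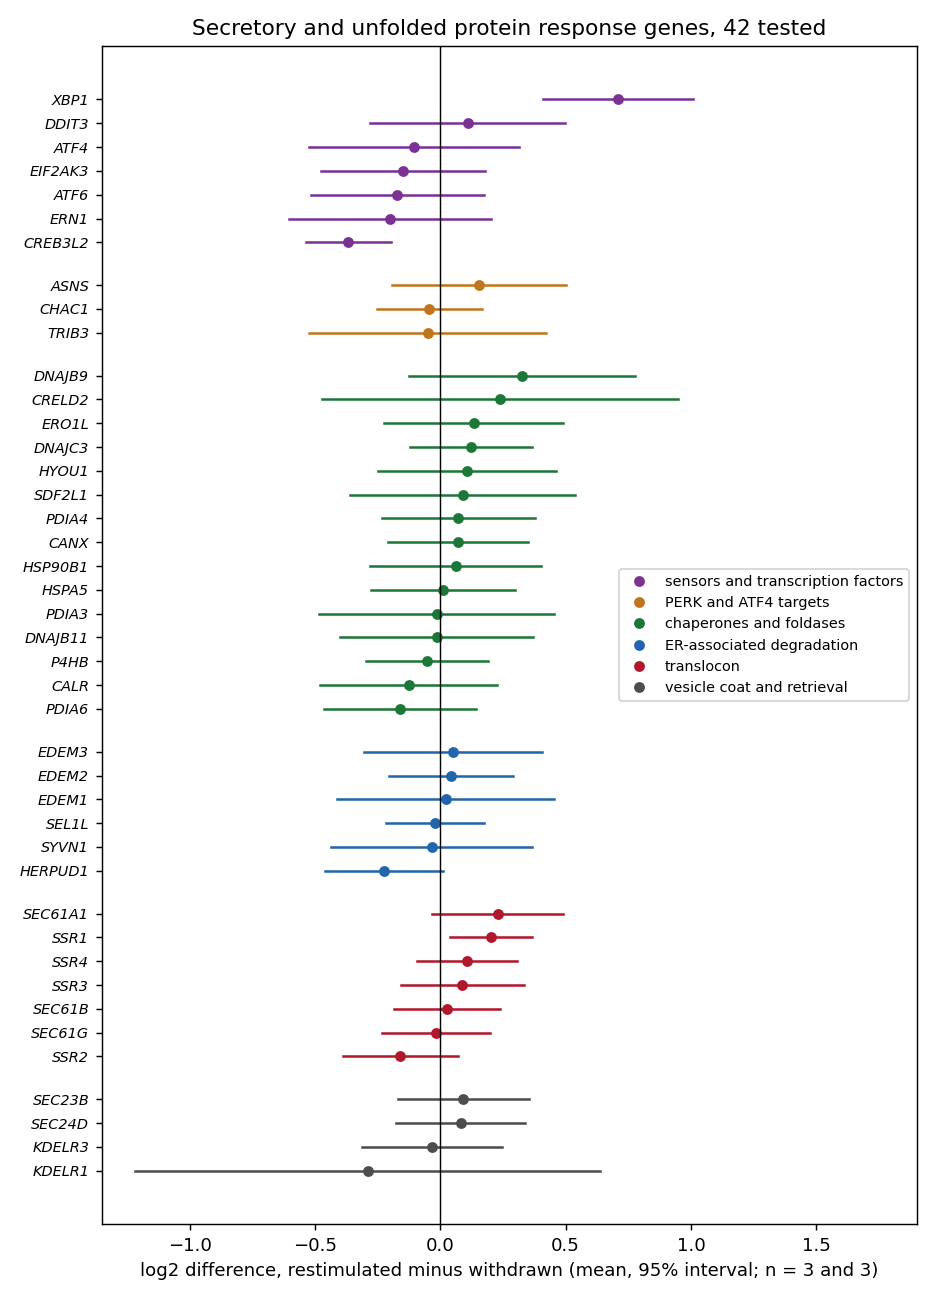
Log2 difference of restimulated minus withdrawn cells for the 42 tested members (points, mean of 3 minus mean of 3 arrays) with the 95% interval of the limma fit (lines), by role. XBP1 stands highest at 0.71 and CREB3L2 lowest at -0.37, and most other intervals include 0.

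Among the sensors and transcription factors, XBP1 and CREB3L2 stood at opposite ends. XBP1, the factor behind much of the secretory capacity of plasma cells, read 14.11, 14.47 and 14.43 on the restimulated arrays and 13.70, 13.68 and 13.49 on the withdrawn arrays. The groups did not overlap, and restimulated replicate 1 was the lowest of its group. The log2 difference was 0.71 ± 0.12 (SE, n = 3 and 3; 95% interval 0.41 to 1.01), which is 1.64-fold, with an unadjusted p of 0.0012 and a limma adjusted p = 0.198. An exact permutation test of this single gene gave p = 0.1, two-sided, the smallest that the 20 arrangements of 3 and 3 arrays allow. Every gene whose groups do not overlap gives that value, so it adds nothing to the separation. In all, 55 genes had a difference at least as large, and XBP1 was 75th by p. In bulk RNA, a change in the share of cells and a change in RNA per cell cannot be told apart.

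A further XBP1 probe, annotated to another transcript accession (NM_001079539, against NM_005080 for the brighter one), gave a similar picture. It read 12.61, 12.96 and 13.01 after restimulation and 12.28, 12.50 and 11.76 after withdrawal, again without overlap. Its log2 difference was 0.68 (1.61-fold). Whether either probe tells the spliced from the unspliced mRNA was not tested.

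CREB3L2 encodes a membrane-bound transcription factor related to ATF6 that acts on genes of vesicle traffic. It read 7.63, 7.62 and 7.51 on the restimulated arrays and 8.01, 7.98 and 7.88 on the withdrawn arrays. The groups were tight and did not overlap. The log2 difference was -0.37 ± 0.07 (95% interval -0.54 to -0.20, limma adjusted p = 0.244). The exact permutation p was again 0.1, as the separation fixes it, and 281 genes had a fall at least as large. It has 1 probe on the array.

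The stress sensors had small negative differences, and their groups overlapped. ERN1 read 11.60, 12.00 and 12.11 after restimulation and 12.17, 12.24 and 11.90 after withdrawal (difference -0.20 ± 0.16). Its further probes differed less, by -0.01 ± 0.13 and -0.08 ± 0.07, also with overlapping groups. EIF2AK3, near the array median and above it on 4 arrays only, read 6.82, 6.83 and 6.98 against 7.30, 6.89 and 6.88 (-0.15 ± 0.13). ATF6 read 10.97, 10.68 and 10.76 against 10.97, 11.21 and 10.75 (-0.17 ± 0.14). In each of the 3 genes the highest value was on a withdrawn array, replicate 2 for ERN1 and ATF6 and replicate 1 for EIF2AK3. None passed the test, with limma adjusted p-values of 0.822, 0.836 and 0.822.

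ATF4, the factor of the PERK branch, read 14.13, 14.50 and 14.74 on the restimulated arrays and 14.59, 14.69 and 14.40 on the withdrawn arrays (-0.10 ± 0.17). The restimulated arrays spread over more than the whole withdrawn range. DDIT3 (CHOP), a factor that promotes cell death under lasting stress, read 8.25, 7.95 and 7.68 against 8.001, 7.74 and 7.81 (0.11 ± 0.16), with overlapping groups. Of their targets, ASNS, which makes asparagine, read 10.62, 10.90 and 10.97 against 10.50, 10.62 and 10.90 (0.16 ± 0.14). CHAC1, which degrades glutathione, read 10.60, 10.79 and 10.81 against 10.84, 10.81 and 10.67 (-0.04 ± 0.09). TRIB3, a pseudokinase that feeds back on this branch, differed by -0.05 ± 0.19. The groups overlapped in all of these genes, and their adjusted p-values were between 0.836 and 0.970.

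**Figure D2:**
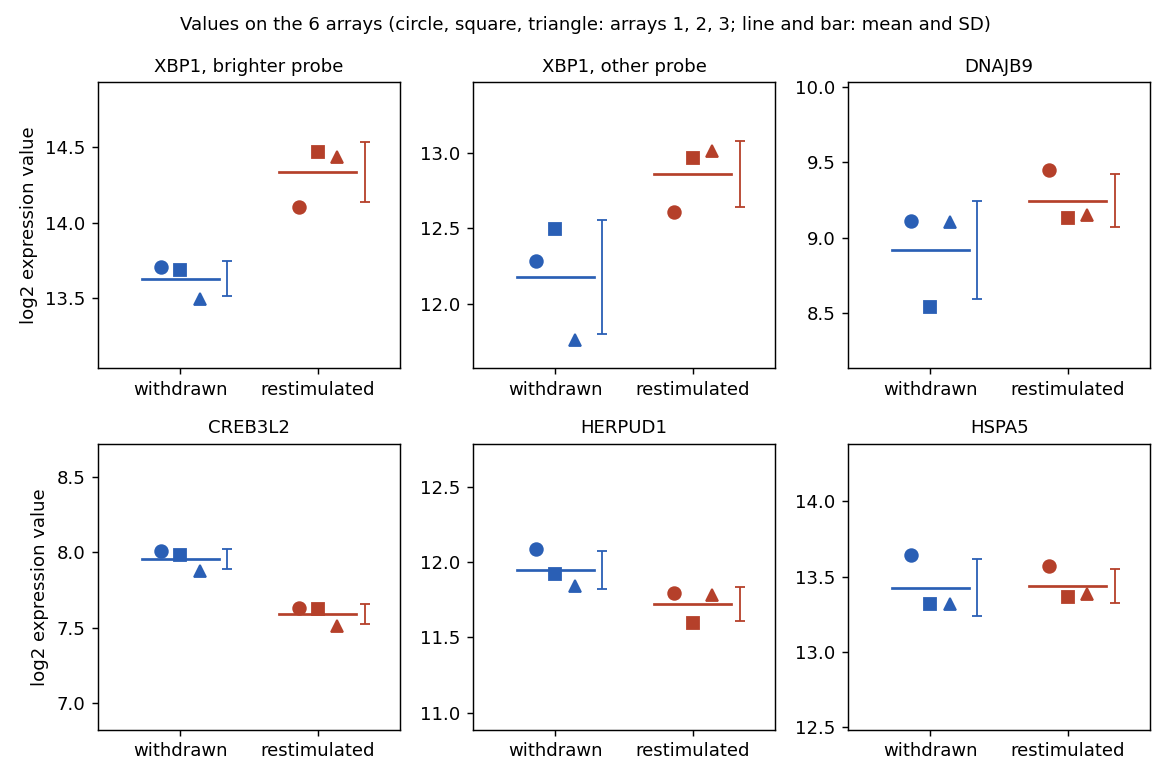
Log2 expression values of XBP1 (both probes), DNAJB9, CREB3L2, HERPUD1 and HSPA5 on each array (circles, squares and triangles for replicates 1, 2 and 3), with the group mean (horizontal line) and SD (bar); all panels span the same log2 range, around different levels. The groups are apart in the first 5 panels and overlap for HSPA5, where replicate 1 is highest in both groups.

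Chaperones and foldases, 15 of which were tested, had no member past the test. HSPA5 (BiP), the main chaperone of the lumen and a standard readout of the response, read 13.57, 13.36 and 13.38 after restimulation and 13.65, 13.31 and 13.32 after withdrawal. The groups overlapped fully and replicate 1 was highest in both. The difference was 0.01 ± 0.12 with a 95% interval of -0.28 to 0.30. DNAJB9, a co-chaperone of HSPA5 and a target of XBP1, read 9.45, 9.13 and 9.15 against 9.11, 8.54 and 9.11 (0.33 ± 0.18, adjusted p = 0.747). Its groups did not overlap by a narrow margin, and withdrawn replicate 2 was far below the other withdrawn arrays. Leaving out that replicate gave a difference of 0.14. PDIA6, a disulfide isomerase, read 14.07, 13.67 and 13.90 against 13.98, 14.18 and 13.95 (-0.16 ± 0.12), with overlapping groups.

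The other 12 chaperones and foldases had overlapping groups and adjusted p-values of at least 0.818. The median difference over all 15 was 0.07, with 10 positive and 5 negative. It changed with single arrays, to -0.05 without restimulated replicate 1 and to 0.13 without withdrawn replicate 1, 0.12 without restimulated replicate 2, 0.01 without withdrawn replicate 2 and 0.00 without withdrawn replicate 3. CRELD2, named here after its values were seen for its wide interval (-0.47 to 0.95), read 13.47, 13.20 and 12.89 against 13.10, 12.36 and 13.37.

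Within both conditions, many of these genes had replicate 1 as the highest array. In 9 of the 15 chaperones and foldases, replicate 1 was the highest array of both groups, namely in HSPA5, HSP90B1, PDIA3, PDIA4, DNAJB9, DNAJB11, DNAJC3, SDF2L1 and HYOU1. Among all tested genes 8.26% showed that order, and among other genes of these pathways 6 of 23 chaperones and foldases (26.1%), 0 of 24 PERK and ATF4 targets and 18 of 129 in all (14.0%). Over all 42 members it was 16 (38.1%), including 3 of 6 degradation genes (SEL1L, SYVN1 and HERPUD1) and 1 of 7 translocon genes (SSR1), with DDIT3, CREB3L2 and TRIB3 making up the rest. This order was noticed in the values and is given as a description. It compares only the highest array of each group. Some leads were narrow, as in the withdrawn group for PDIA4 (12.533 against 12.526 on replicate 2) and DNAJB9 (9.110 against 9.105 on replicate 3).

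The size of this array pattern was moderate. The median deviation of the 15 chaperones and foldases from their own 6-array means was 0.16, -0.09 and -0.01 on restimulated replicates 1, 2 and 3 and 0.09, -0.08 and -0.12 on withdrawn replicates 1, 2 and 3, while that of all tested genes stayed between -0.03 and 0.05. Of the 16 genes with this order, 6 had further probes above the filter, and 3 of those 7 probes repeated it. HSP90B1 (GRP94), an HSP90 chaperone of the lumen, showed the order on both its probes, with 15.46, 15.06 and 15.19 against 15.38, 15.09 and 15.05 on the brighter and 12.69, 11.80 and 11.90 against 12.53, 11.86 and 11.97 on the other. The 3 probes of PDIA3, a disulfide isomerase for glycoproteins, all did so too, the dimmest with 9.44, 8.86 and 9.10 against 9.07, 8.62 and 9.05. The further probes of HSPA5, SSR1, SYVN1 and TRIB3 did not, that of HSPA5 with 7.21, 6.97 and 7.22 against 7.14, 7.03 and 7.01. Over all tested genes, deviations from the group mean had correlations of 0.05, -0.02 and -0.28 between arrays numbered 1, 2 and 3 alike. Between arrays of unlike number they ran from -0.22 to 0.22. With 3 arrays around each group mean, these correlations are tied to each other. What replicate 1 of the groups share besides the number is not stated in the labels, and its part in the pattern was not tested.

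**Figure D3:**
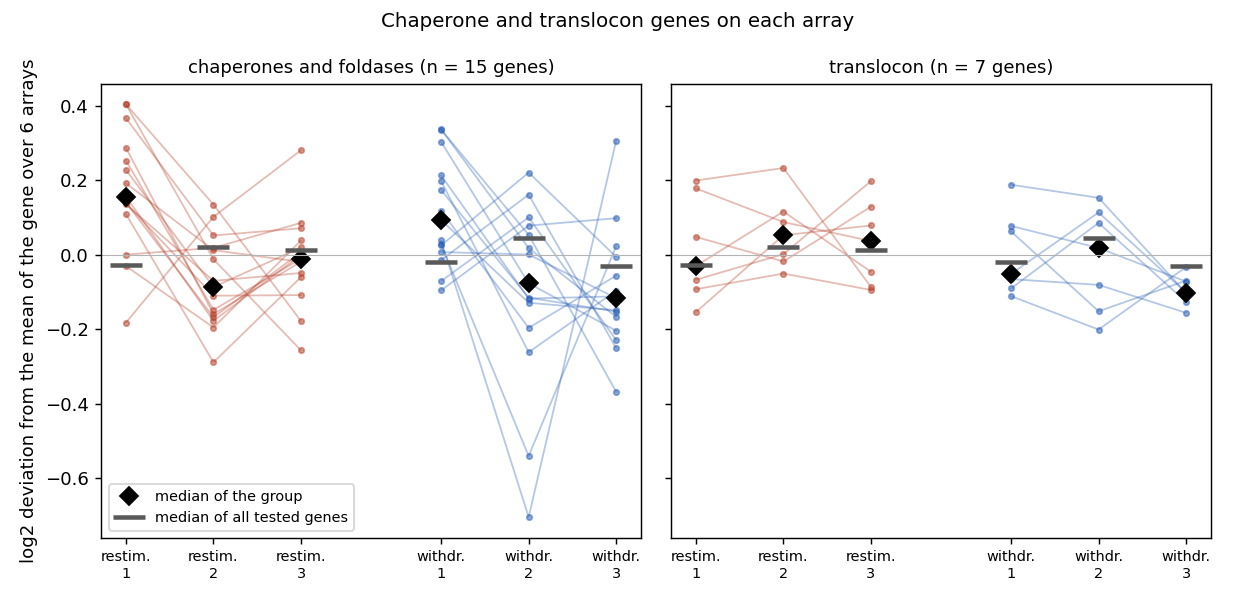
Log2 deviation of each gene from its own mean over 6 arrays (small points joined within a group), for the 15 tested chaperones and foldases and the 7 translocon genes, with the median of the group (diamonds) and of all tested genes (dashes). The chaperone medians are highest on replicate 1 of both groups, at 0.16 and 0.09, and the translocon medians are not.

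Endoplasmic reticulum-associated degradation, by which misfolded chains are brought back to the cytosol, had 6 tested members and a median difference of 0.00. HERPUD1, a scaffold of the degradation complex, read 11.80, 11.59 and 11.78 on the restimulated arrays and 12.09, 11.92 and 11.84 on the withdrawn arrays. Its groups did not overlap, although restimulated replicate 1 and withdrawn replicate 3 nearly met. The difference was -0.23 ± 0.10 (95% interval -0.46 to 0.01, limma adjusted p = 0.638). EDEM2, a mannosidase that marks glycoproteins for degradation, read 9.39, 9.24 and 9.49 against 9.46, 9.33 and 9.21 (0.04 ± 0.10), and a further probe of it read 9.03, 9.07 and 8.80 against 8.69, 8.57 and 8.87 (0.26 ± 0.11). Both probes overlapped between the groups. SEL1L and SYVN1 (HRD1), the core of the ubiquitin ligase, differed by -0.02 and -0.03, and EDEM1 and EDEM3 by 0.02 and 0.05.

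The translocon, the channel of the SEC61 subunits with its SSR partner complex, had 7 tested members and a median difference of 0.09, with 5 positive and 2 negative. SSR1 read 9.07, 8.98 and 8.93 after restimulation and 8.82, 8.81 and 8.73 after withdrawal. The groups did not overlap, and the difference was 0.20 ± 0.07 (95% interval 0.04 to 0.37, unadjusted p = 0.024, limma adjusted p = 0.515). Its further probe, at 8.18, 8.22 and 8.26 against 8.10, 8.30 and 8.14, overlapped and differed by 0.04. SEC61A1, the pore subunit, read 11.52, 11.56 and 11.24 against 11.21, 11.12 and 11.29 (0.23 ± 0.11, adjusted p = 0.686), with withdrawn replicate 3 above restimulated replicate 3. The remaining 5 genes, SEC61B, SEC61G, SSR2, SSR3 and SSR4, lay between -0.16 and 0.11, all with overlapping groups.

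None of the 4 tested vesicle coat and retrieval genes separated the groups. SEC23B, of the COPII coat that leaves the reticulum, read 11.08, 10.72 and 11.03 against 10.85, 10.84 and 10.86 (0.09 ± 0.11). SEC24D, which selects cargo for that coat, read 8.35, 8.26 and 8.29 against 8.13, 8.10 and 8.43 (0.08 ± 0.10). In both genes the groups overlapped. KDELR3, a receptor that returns escaped chaperones to the reticulum and was above the array median on 3 arrays only, differed by -0.03 ± 0.11. KDELR1, another such receptor, had the widest interval of all members, -1.22 to 0.64, and is named after its values were seen. It read 14.03, 14.16 and 13.48 against 13.42, 14.80 and 14.32, while its further probe differed by -0.04 ± 0.12.

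Where genes had more than 1 probe, the additional probes were read separately. In 19 members, 21 further probes passed the filter, and 15 of them had the sign of the probe used. Their differences ran from -0.15 (TRIB3) to 0.68 (XBP1), and only the XBP1 probe separated the groups.

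Other genes of the same pathways, 132 in the table and 129 tested, were read in the same fit. None passed the test in either direction (limma, 0 of 129). Unadjusted p-values under 0.05 were found for 9 higher and 1 lower (6.98% higher, against 3.6% of all tested genes). All restimulated arrays were above all withdrawn arrays in 17 genes (13.2%, against 5.8%) and below them in 3 (2.33%, against 6.36%). Of the 129 differences 92 were positive, or 71.3%, where 53.2% of all tested genes were positive. The shift itself was small, with a median of 0.05 against 0.01. Among genes above the array median on all 6 arrays, 71.0% against 54.1% were positive. Genes matched by signal level were not compared. Normalising again over the probes with a symbol gave 62.8% against 51.4%, and leaving out 1 array at a time gave between 61.2% against 48.5%, without withdrawn replicate 3, and 77.5% against 58.3%, without withdrawn replicate 2.

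The smallest p of these lists was that of a vesicle traffic gene. COPA, a subunit of the COPI coat that carries proteins back to the reticulum, read 10.45, 10.44 and 10.53 after restimulation and 10.04, 10.23 and 10.21 after withdrawal, without overlap (0.31 ± 0.08, adjusted p = 0.401). TMED2, a cargo receptor of such vesicles, read 11.92, 11.77 and 11.58 against 11.47, 11.39 and 11.41, also without overlap (0.33 ± 0.10, adjusted p = 0.488). Among the 31 genes of this list 22 differences were positive.

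The 23 further chaperones and foldases had 5 genes that separated upwards (21.7%, against 5.8% of all tested genes) and 0 downwards (against 6.36%). TXNDC11, a thioredoxin-like protein of the reticulum, read 12.93, 13.14 and 12.88 against 12.45, 12.47 and 12.79 (0.41 ± 0.12, adjusted p = 0.490). FKBP14, a prolyl isomerase, read 7.51, 7.49 and 7.64 against 7.30, 7.40 and 7.24 (0.23 ± 0.08, adjusted p = 0.515). The groups were apart in each gene, by less than 0.1 in both.

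In the list of targeting, translocation and N-glycosylation, 22 of 31 differences were positive. GMPPB, which makes the mannose donor of glycosylation, read 9.10, 9.06 and 8.85 against 8.73, 8.54 and 8.68 (0.35 ± 0.10, adjusted p = 0.459). SRP72, a subunit of the signal recognition particle, went the other way, with 9.49, 9.38 and 9.42 against 9.61, 9.66 and 9.59 (-0.19 ± 0.06, adjusted p = 0.511). Neither gene overlapped between the groups.

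Degradation genes beyond the members were positive in 15 of 20, with UBE2G2, a ubiquitin-conjugating enzyme, at 0.15 ± 0.07 and SELENOS at 0.12 ± 0.08. The 24 other targets of PERK and ATF4 had 17 positive differences. ALDH1L2, a mitochondrial folate enzyme, differed by 0.14 ± 0.06 and DDIT4, an inhibitor of mTORC1, by -0.15 ± 0.08. PCK2, a mitochondrial enzyme named after its values were seen, had the only difference of these 129 genes beyond 0.5 in size, at -0.99 ± 0.86. That value rests on withdrawn replicate 3, at 12.57, while the other 5 arrays read between 9.34 and 9.76.

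**Figure D4:**
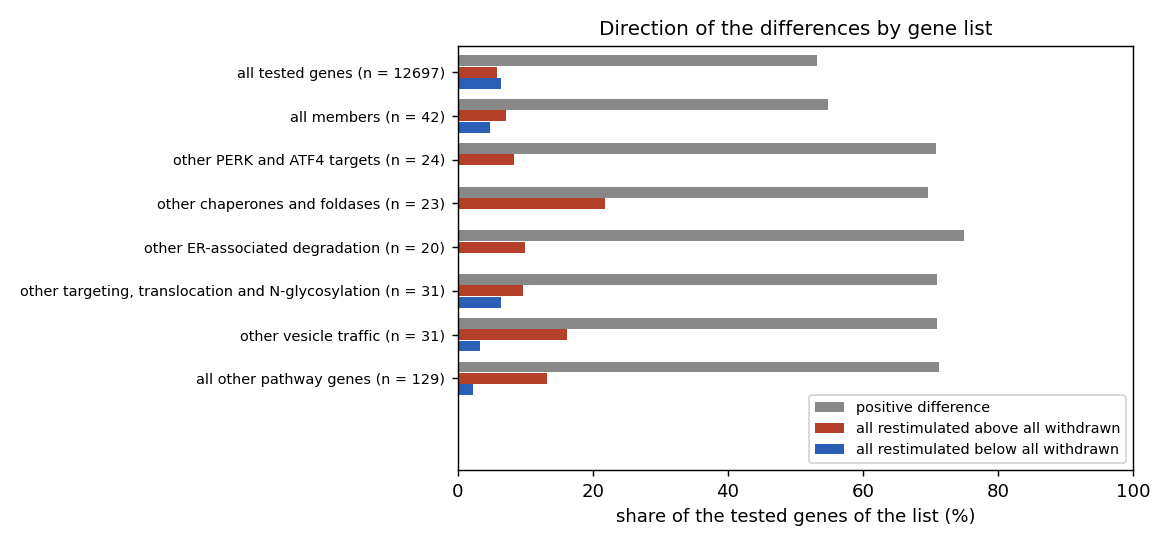
Share of the tested genes of each list with a positive log2 difference (grey), with all restimulated arrays above all withdrawn arrays (red) and with all below (blue), in percent. The 42 members are close to all tested genes, and the other pathway genes have 71.3% positive differences against 53.2%.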

How the data were processed

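Total RNA of 6 INA6 samples was measured on single-colour Agilent custom arrays. The deposited log2 values had been normalised by the authors so that all arrays share nearly 1 distribution; in the submitters' processing notes the tools listed are limma and R 2.9.0, and the background correction is not stated there. All columns of the table were used. Its rows carry no probe names. They were matched to the 27216 probes with a symbol through the array's grid, an inference checked on genes with several probes (r = 0.43 over 7146 pairs, against 0.02 with equal numbers). Symbols were updated through RefSeq tables by accession (23830 probes), symbol (2498) or older symbol (854), and 34 were kept. Per gene the brightest probe over the 6 arrays was used and tested if above the array median on at least 3 arrays. Groups of 3 and 3 were compared with limma 3.58.1 (R 4.3.3; lmFit, eBayes), two-sided, with Benjamini-Hochberg adjustment over 12697 genes at 0.05. The script was tested on simulated data. The depth behind an array value is unknown, and 3 arrays a group limit the precision.

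The genes and lists were chosen with earlier results of these data known. Named genes are those past the threshold, separated by at least 0.3, the sensors with XBP1, ATF4, DDIT3 and HSPA5, the 2 smallest p-values of each role group and of each further list, untested members, and SOCS3. Alternatives concerned the filter, replicate block, variance prior, features fitted, ceiling, normalisation, symbols, probe choice and each array left out. Their use on the chaperone median and on the other pathway genes was chosen after seeing the data. Retrieval signals in the protein sequences were not analysed here.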

Additional observations from a re-analysis of the deposited data

How the results depend on the processing

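No listed gene passed the threshold under 14 of 15 alternatives. With probes at the ceiling left out, 1 did, XBP1 (adjusted p = 0.0345), whose own value did not change; over the alternatives its difference was 0.64 to 0.83 and its adjusted p 0.0345 to 0.637. CREB3L2 stayed between -0.41 and -0.33 (adjusted p 0.0717 to 0.709). Of 18 named members 13 kept their sign throughout; ATF4, DDIT3, CHAC1, HSPA5 and EDEM2 did not, each with an adjusted p over 0.6. The numbers of all genes called higher and lower were 30 and 1, and became 60 and 18 with an intensity trend and robust prior, 53 and 8 with all probes fitted together, and 54 and 7 without probes at the ceiling. Normalising again over probes with a symbol gave 5 lower. With the replicate block they were 1 and 0, and no listed gene was called. The labels do not say whether equal replicate numbers pair the samples. Leaving out 1 array gave 6 to 15 higher and 0 to 0 lower, and 4 to 7 members separated upwards (9.52% to 16.7%, against 8.15% to 14.5% of all tested genes) and 2 to 6 downwards (4.76% to 14.3%, against 8.92% to 14.5%). The causes were not tested, except that fewer arrays were fitted in the last. Separation was not recomputed after the added normalisation. Array values near background and 3 arrays a group limit what could be detected.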
